A study of Mus musculus with 8 samples.

Results

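The transcripts described here come from 35 mouse genes of glycolysis, lactate handling and the pentose phosphate pathway, with Hif1a, which encodes a regulator of glycolytic genes. The rule gives the genes by name and uses no measured value. Of 35 listed symbols, 35 were found in all 8 libraries, among 24421 symbols counted, and 35 passed the filter on low counts. RNA was sequenced from primary mouse macrophages of 3 groups, each on a normal diet: wild type (WT, 3 libraries), a genotype labelled LysM-DKO (3 libraries) and a genotype labelled ABCG1KO (2 libraries). For the group labelled LysM-DKO, the design text of the series writes Epsin-DKO. LysM is the usual short name of the lysozyme gene whose promoter drives Cre recombinase in myeloid cells. The labels describe no allele, age, sex or tissue of origin, and do not say whether libraries came from separate animals. All p-values therefore measure only the spread between these libraries, which may be technical.

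Glycolysis splits glucose into pyruvate in the cytosol. Glucose transporters and hexokinases bring glucose in and trap it, phosphofructokinase commits it to the pathway, and the enzymes from aldolase to pyruvate kinase yield ATP and NADH. Lactate dehydrogenase restores NAD+ by turning pyruvate into lactate. The pentose phosphate pathway branches off after hexokinase, makes NADPH in its oxidative arm, and returns sugars to glycolysis through transketolase and transaldolase. Macrophages are known to raise glycolysis when activated, partly through the transcription factor HIF1A, and to use NADPH for the oxidative burst and for lipid synthesis.

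Libraries held 29567615 to 41888516 counts in genes. Levels are given in CPM, the counts of a gene relative to the library size after TMM scaling, and log2 fold changes come from a single edgeR quasi-likelihood fit of all 8 libraries. Genes with an adjusted p under 0.05 (Benjamini-Hochberg, over all 13821 genes tested) are referred to as called. Abcg1, the transporter gene that names one genotype, was at 405, 404 and 345 CPM in WT and at 60.4 and 73.4 CPM in ABCG1KO. The libraries labelled LysM-DKO held 169, 183 and 155 CPM of Epn1, against 230, 203 and 191 CPM in WT, and 5.67 to 13.2 CPM of Epn2, against 4.97 to 8.86 CPM, so that most transcript remained. Reads aligned to several loci made up 2.65% to 3.01% of the reads in WT and LysM-DKO and 6.93% and 6.74% in ABCG1KO. The share of reads that fell in no annotated gene was 4.26% to 6.07% and, in ABCG1KO, 13.8% and 10.2%. By Xist and Ddx3y, the 3 WT libraries and LysM-DKO 2 and 3 carried a female pattern, and LysM-DKO 1 and both ABCG1KO libraries a male pattern. Genotype, sex and these features of the reads cannot be told apart between ABCG1KO and WT. The summed level of 7 macrophage markers was 17882 to 21066 CPM in WT, 10870 to 12843 CPM in LysM-DKO and 18076 to 21544 CPM in ABCG1KO. Most of this sum was Lyz2, the lysozyme gene, at 13004, 15147 and 15710 CPM in WT and 6177, 8105 and 6266 CPM in LysM-DKO. The other 6 markers overlapped between WT and LysM-DKO, and the median log2 fold change of all 7 was -0.12, with 0 called. In ABCG1KO against WT the similar sums hid differences in both directions. Adgre1 (1.21, SE 0.242) and Csf1r (1.19, SE 0.249) were called higher and Cd68 (-1.06, SE 0.228) lower, and 4 markers were not called. Of all genes tested, 16% were called in this comparison.

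Several glycolytic enzymes have many processed copies in the mouse genome, and a read from a stretch that a copy shares cannot be placed on the gene alone. The share of each gene's coding windows of 50 bases that also occur in genes at other loci was measured on GENCODE M21 transcripts (GRCm38). It was 100% for Pgk1 and Pgam1, 94.2% for Gapdh and 83.3% for Eno1. It was 46.9% for Pkm, 35.6% for Ldhb, 32.4% for Gpi1, 28.4% for Ldha, 16.8% for Aldoa, 13.7% for Tpi1, 13.0% for Taldo1 and 9.76% for G6pdx. The other 23 genes had no such window. Gapdh windows were found in 221 other genes, of which 212 are annotated as pseudogenes, whereas those of Pgk1 lay in 5 other genes and those of Pgam1 in 4, all of them pseudogenes. Stretches of coding sequence of 3 enzymes of these steps are shown because their shared windows differ in the number of other genes that hold them. Capitals mark a window of 50 bases that occurs unchanged in other genes, and lower case marks flanking bases of the same coding sequence, 5′ to 3′.
Tpi1, coding bases 652 to 731, window in 1 other gene: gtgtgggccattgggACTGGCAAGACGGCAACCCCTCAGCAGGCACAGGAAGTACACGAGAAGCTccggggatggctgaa
Gapdh, coding bases 951 to 1030, window in 69 other genes: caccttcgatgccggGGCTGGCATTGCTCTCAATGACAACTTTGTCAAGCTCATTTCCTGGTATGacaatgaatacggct
Pgam1, coding bases 128 to 207, window in 2 other genes: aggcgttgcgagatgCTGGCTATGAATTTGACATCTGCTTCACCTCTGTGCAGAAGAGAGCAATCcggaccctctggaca

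By the counts assigned to each gene, transcripts of aldolase, Gapdh and pyruvate kinase were the most abundant in WT. Genes differ in how much sequence they share with other loci, so that this order is uncertain. Per kilobase of the transcript with the longest coding sequence, the mean level was 1268 CPM for Aldoa, 1030 for Gapdh, 745 for Pkm, 411 for Ldha, 365 for Taldo1, 297 for Tpi1, 277 for Pgd and 248 for Hk3. At the other end, Slc2a3 was at 0.309 CPM per kilobase and Eno3 at 3.15. The 35 genes together took 1.08%, 1.19% and 0.861% of the counts in genes in WT, 0.804%, 0.905% and 1.00% in LysM-DKO, and 0.746% and 0.796% in ABCG1KO. For the 23 genes with no shared coding window, the shares were 0.294%, 0.301% and 0.261% in WT, 0.235%, 0.261% and 0.269% in LysM-DKO, and 0.324% and 0.307% in ABCG1KO, so that ABCG1KO was lowest by the whole set and highest by these genes. The WT libraries differed among themselves in many of the genes at once. WT 2 was the highest WT library for 23 genes and WT 3 the lowest for 21. Gapdh ranged from 731 CPM in WT 3 to 1705 CPM in WT 2, and Pgk1 from 191 to 443 CPM in the same libraries.

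**Figure D1:**
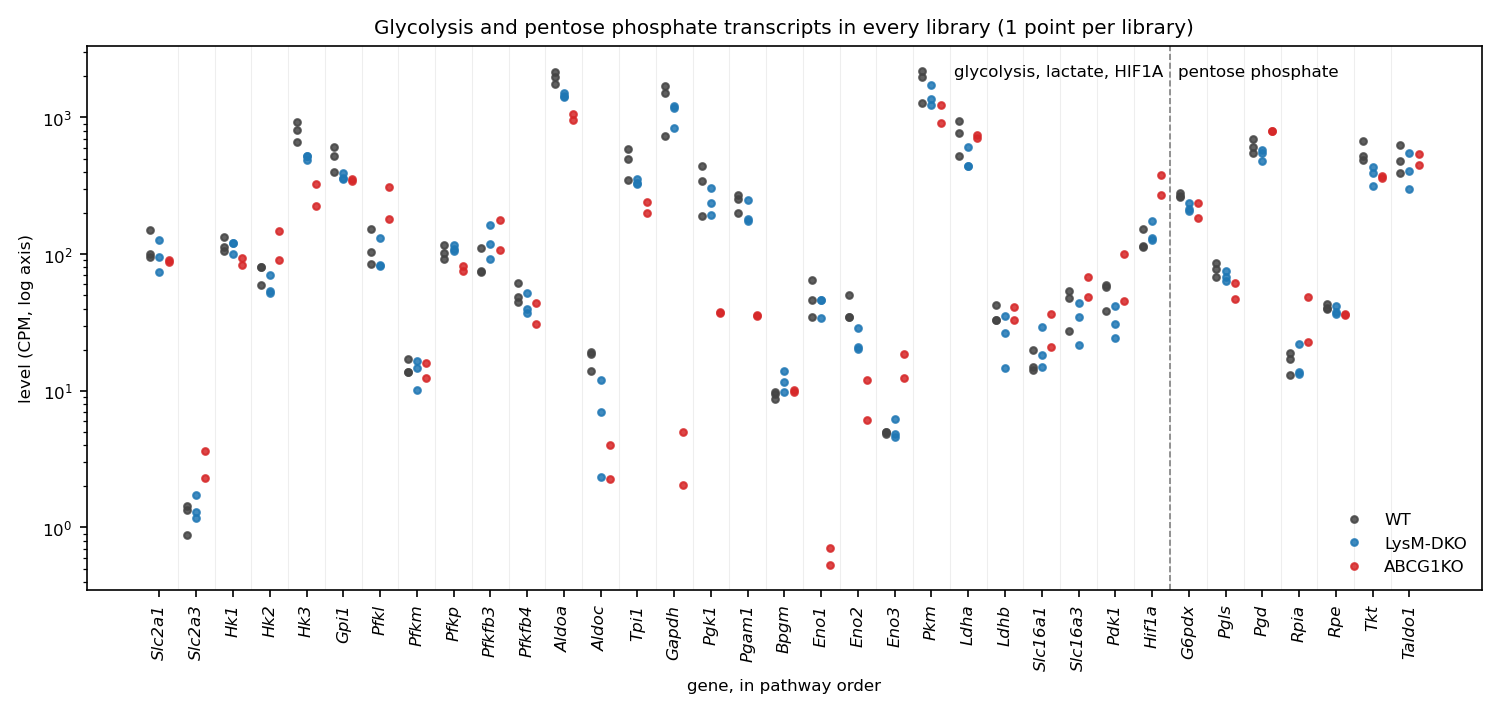
Level of each gene in every library, in CPM on a log axis, with genes in pathway order and 1 point per library (WT grey, LysM-DKO blue, ABCG1KO red). Gapdh, at 731 to 1705 CPM in WT and 4.99 and 2.05 CPM in ABCG1KO, and Eno1, at 34.8 to 65.1 CPM and 0.533 and 0.708 CPM, stand far below the other groups in ABCG1KO. Among the pentose phosphate genes on the right, Rpia is highest in ABCG1KO, at 48.2 and 22.6 CPM against 13.1 to 18.8 CPM in WT.

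The comparison of ABCG1KO with WT asks which transcripts differ between these groups, and it cannot separate loss of the cholesterol transporter from the sex pattern and the features of the reads. In the lower part of glycolysis, between aldolase and enolase, 8 genes were called lower, and Hk3 was the only further gene called lower. Eno3 and Hif1a were called higher, and 24 of the 35 genes were not called. The 11 calls make 31.4% of the set, where 16% of all genes tested were called, 7.21% higher and 8.83% lower. Over the 35 genes, 22 log2 fold changes were negative and 13 positive, with a median of -0.36 against 0.01 over all genes. This median was -0.20 without ABCG1KO 1, -0.21 without WT 2, -0.19 with copies counted together and -0.06 with a term for the sex pattern. Over the 14 genes with under 1% of transcript sequence shared with any other gene it was 0.38. That limit also counts genes overlapping at the same locus, which alone left out Slc2a1, Hk1, Pfkm, Pfkp, Hif1a, Pgls and Rpe. The libraries of both groups did not overlap for 9 higher and 19 lower genes, and this held for 48.2% of all genes tested, 23.9% higher and 24.2% lower.

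**Figure D2:**
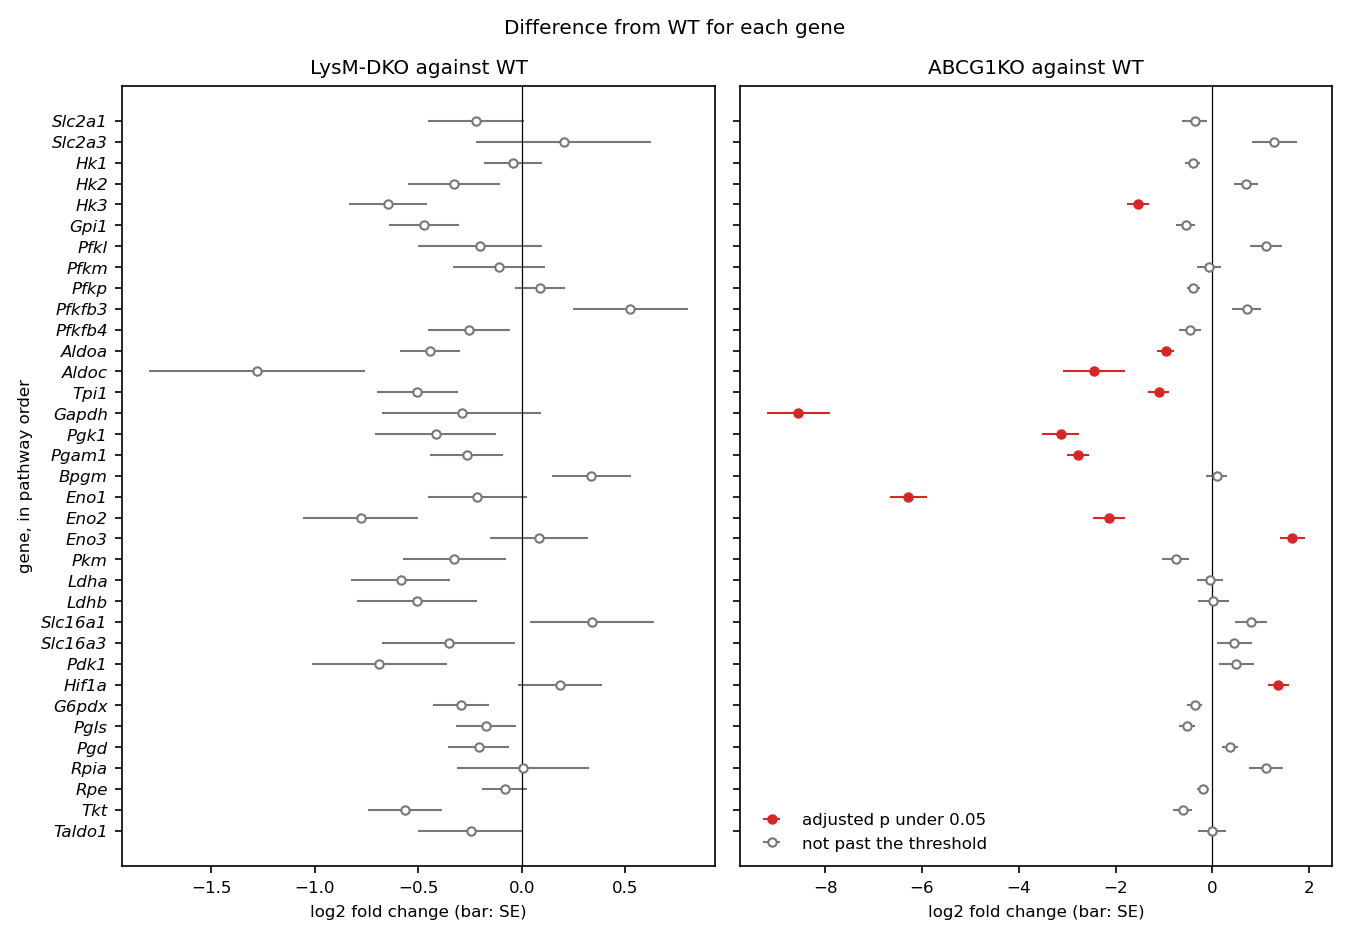
Log2 fold change of each gene against WT, with standard errors as bars, for LysM-DKO on the left and ABCG1KO on the right, on axes of different width. Filled red points are past the adjusted p of 0.05: there are 0 on the left and 11 on the right, where Gapdh lies at -8.55 and Eno1 at -6.28.

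Gapdh encodes the dehydrogenase that makes the NADH of glycolysis, and its gene lies at chr6:125161715-125166467 on the minus strand. It was at 1500, 1705 and 731 CPM in WT, at 840, 1164 and 1213 CPM in LysM-DKO, and 4.99 and 2.05 CPM in ABCG1KO, where 159 and 87 counts were left. Both ABCG1KO libraries thus lay far below the lowest of the other 6. The log2 fold change against WT was -8.55 (SE 0.652, edgeR Benjamini-Hochberg adjusted p 0.000147), which left 0.268% of the WT mean, and was -9.33 without ABCG1KO 1. Of the copies of Gapdh with counts, Gm12070 holds 87.5% of its coding windows and had 34 to 67 counts in WT, 47 to 81 in LysM-DKO, and 0 and 2 in ABCG1KO. An alternative added after the data were seen counted Gapdh together with the counted copies that hold at least 10% of its coding windows. There Gapdh differed by -8.27. The genes that share most of its sequence, Gm7336, Gm12671 and Gm10359, are not among the symbols counted. This sum therefore cannot cover reads placed on them. Iffo1 overlaps Gapdh, and the strand setting of the counting is not given in the sources used here.

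The neighbouring steps were set against Gapdh within each library, which needs no scaling between libraries. The log2 ratio of Gapdh to the geometric mean of Aldoa, Tpi1, Pgk1, Pgam1 and Eno1 had a mean of 1.96 ± 0.318 in WT (SD, n = 3), of 2.08 ± 0.174 in LysM-DKO (n = 3) and of -3.81 ± 1.02 in ABCG1KO (n = 2). Against Aldoa and Tpi1 alone, which share less of their sequence, it was 0.36 ± 0.410, 0.60 ± 0.295 and -7.19 ± 1.05. Gapdh therefore stood apart from the steps before it by more than from the steps after it. Each ratio has a pseudocount of 0.5 counts.

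Aldoa, the main aldolase gene of these cells, was at 1963, 2159 and 1769 CPM in WT, at 1500, 1430 and 1409 CPM in LysM-DKO, and 957 and 1053 CPM in ABCG1KO. The 3 groups did not overlap, and ABCG1KO was at 51.2% of WT (log2 fold change -0.97, SE 0.167, edgeR Benjamini-Hochberg adjusted p 0.00816). Tpi1, which interconverts the products of aldolase, was at 498, 583 and 351 CPM in WT, 328, 331 and 352 CPM in LysM-DKO, and 200.3 and 242 CPM in ABCG1KO. Its log2 fold change was -1.11 (SE 0.224, edgeR Benjamini-Hochberg adjusted p 0.0151). Without ABCG1KO 1, the calls of Aldoa (-0.91) and Tpi1 (-0.99) were lost, with edgeR Benjamini-Hochberg adjusted p-values of 0.0611 and 0.0966. Aldoart1, a copy that shares sequence with Aldoa, had 122 to 195 counts in each WT and LysM-DKO library and 0 counts in both ABCG1KO libraries. Aldoc, an aldolase best known from brain, was at 18.7, 19.1 and 13.9 CPM in WT and at 2.26 and 4.03 CPM in ABCG1KO. Its call (-2.45, SE 0.635, edgeR Benjamini-Hochberg adjusted p 0.0363) was lost when any of the 5 libraries of both groups was left out (-2.10 to -2.94).

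Counts assigned to the genes of both steps after Gapdh were lower in ABCG1KO as well. Of the coding windows of Pgk1 and Pgam1, 100% are shared with other loci, and of all windows of their annotated transcripts 53.9% and 36.2%. Whether transcript was lost or reads were placed elsewhere was not tested. Pgk1, which makes ATP in the next step and lies at chrX:106187100-106203699, was at 344, 443 and 191 CPM in WT, 194, 237 and 302 CPM in LysM-DKO, and 36.8 and 37.5 CPM in ABCG1KO. Pgam1, the phosphoglycerate mutase gene at chr19:41911923-41918660, was at 253, 272 and 201 CPM, 180, 175 and 248 CPM, and 35.8 and 35.1 CPM. Both genes were thus nearly equal in the ABCG1KO libraries, at 11.4% and 14.6% of WT. The log2 fold changes were -3.13 (SE 0.376) for Pgk1 and -2.77 (SE 0.223) for Pgam1, with edgeR Benjamini-Hochberg adjusted p-values of 0.00146 and 0.000176. Bpgm, whose product makes 2,3-bisphosphoglycerate from the same intermediate and which has no shared coding window, was at 8.78 to 9.85 CPM in WT and at 10.1 and 9.86 CPM in ABCG1KO.

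Enolase, which makes phosphoenolpyruvate, is encoded by Eno1 in most tissues, Eno2 in neurons and Eno3 in muscle. Eno1 (chr4:150236721-150248879) was at 46.5, 65.1 and 34.8 CPM in WT, 33.9, 45.9 and 46.5 CPM in LysM-DKO, and 0.533 and 0.708 CPM in ABCG1KO. The log2 fold change was -6.28 (SE 0.379, edgeR Benjamini-Hochberg adjusted p 3.76e-05). Eno1b, a gene on another chromosome that holds 80.7% of the coding windows of Eno1, went the opposite way. It had 31, 49 and 24 counts in WT and 29, 21 and 35 in LysM-DKO, but 1924 and 3023 in ABCG1KO, where Eno1 had 17 and 30. Counted together, both genes were at 47.4, 66.5 and 35.4 CPM in WT, 34.6, 46.4 and 47.3 CPM in LysM-DKO, and 60.9 and 72.0 CPM in ABCG1KO. In that fit, added after the data were seen, the difference from WT was 0.42 (edgeR Benjamini-Hochberg adjusted p 0.310), so that the call of Eno1 was lost and its sign turned.

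**Figure D3:**
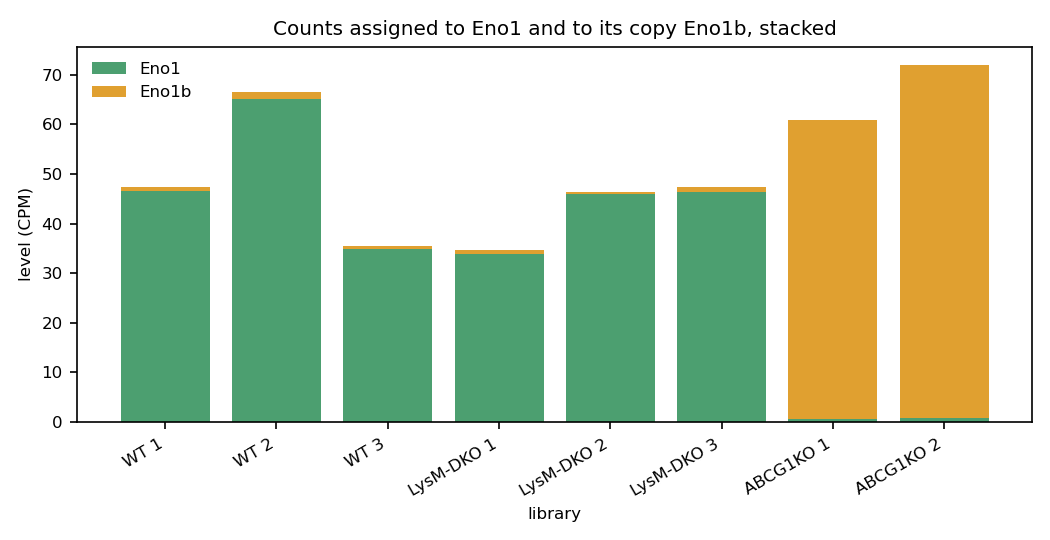
Stacked bars of the counts assigned to Eno1 (green) and to its copy Eno1b (orange) in each library, in CPM. In the 6 WT and LysM-DKO libraries nearly the whole bar is Eno1, in both ABCG1KO libraries nearly the whole bar is Eno1b, and the sums of 60.9 and 72.0 CPM compare with WT sums of 35.4 to 66.5 CPM.

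Neither Eno2 nor Eno3 has a shared coding window. Eno2 was at 34.5, 34.9 and 50.2 CPM in WT, 28.7, 21.04 and 20.1 CPM in LysM-DKO, and 6.11 and 12.0 CPM in ABCG1KO. In ABCG1KO it changed by -2.13 log2 units (SE 0.338, edgeR Benjamini-Hochberg adjusted p 0.00562). Eno3 was at 4.81, 4.998 and 4.97 CPM in WT, 6.203, 4.85 and 4.598 CPM in LysM-DKO, and 12.4 and 18.7 CPM in ABCG1KO, a rise of 1.66 (SE 0.261, edgeR Benjamini-Hochberg adjusted p 0.0055). The log2 ratio of Eno3 to Eno2 within a library was -2.99 ± 0.297 in WT (SD, n = 3) and 0.82 ± 0.271 in ABCG1KO (n = 2), so that Eno2 was above Eno3 in each WT library and below it in both ABCG1KO libraries. Of the counts of the 3 enolase genes, without Eno1b, Eno2 held 40.2%, 33.3% and 55.8% in WT, and Eno3 held 65.1% and 59.4% in ABCG1KO. The shares in ABCG1KO rest on leaving Eno1b out. It had 1924 and 3023 counts there, against 395 and 791 for Eno3, so that Eno3 was not the main enolase gene with Eno1b included. Because 83.3% of the coding windows of Eno1 are shared, its own counts and thus these shares are uncertain in every group.

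Differences in ABCG1KO were set beside the shared sequence of each gene, with limits of 80% and 5% chosen after the values were seen. The 4 genes with over 80% of their coding windows shared (Gapdh, Eno1, Pgk1 and Pgam1) were called lower, with a median log2 fold change of -4.71. Among the 8 genes with 5% to 80% shared, 2 were called lower (Aldoa and Tpi1), with a median of -0.46. Among the 23 genes with none, 2 were called higher and 3 lower, with a median of 0.09. In LysM-DKO against WT, the medians of these 3 sets were -0.28, -0.46 and -0.17, with 0 calls. All genes tested were also grouped by transcript sequence shared with any other gene, overlapping ones included. Of these, 6.33% were called lower in ABCG1KO where under 1% was shared and 19.7% where 20% or more was shared. The part that shared sequence had in any single difference was not tested.

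**Figure D4:**
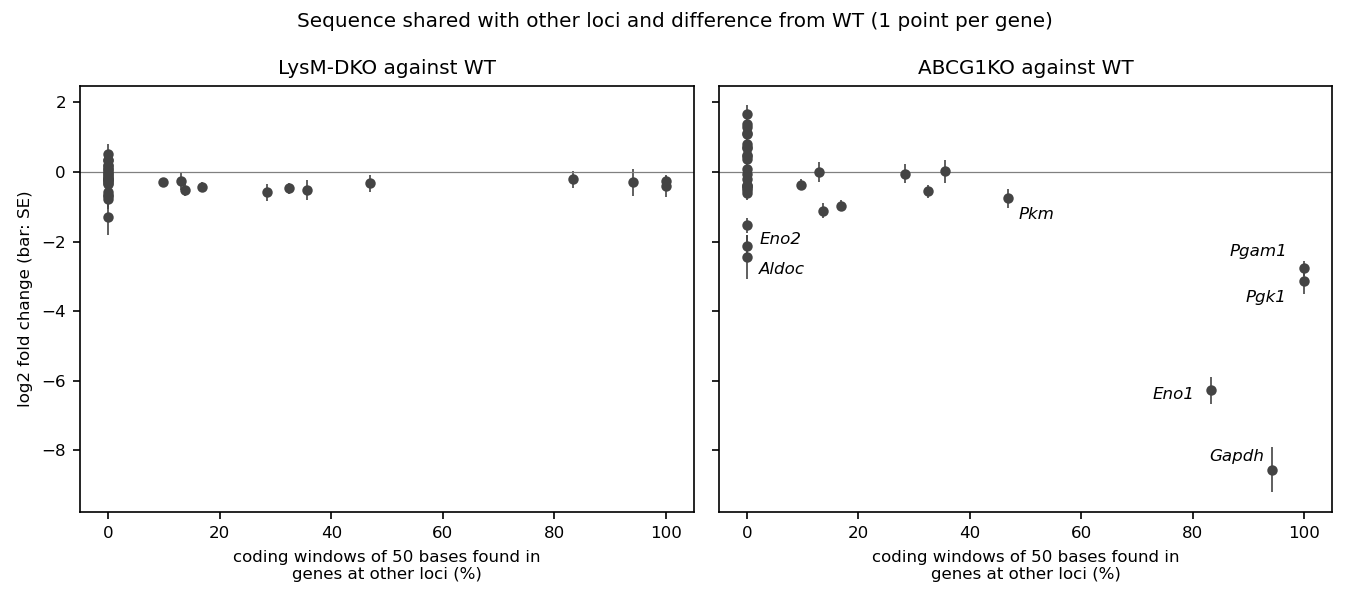
Log2 fold change against WT (bars are standard errors) plotted against the percent of coding windows of 50 bases that occur in genes at other loci, 1 point per gene, for LysM-DKO and ABCG1KO. In ABCG1KO the 4 genes beyond 80% lie between -8.55 and -2.77, whereas in LysM-DKO the same 4 genes lie between -0.42 and -0.21.

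Neither glucose transporter gene was called in ABCG1KO. Slc2a1, the main glucose transporter gene, was at 99.8, 149 and 96.0 CPM in WT, 74.1, 95.8 and 126 CPM in LysM-DKO, and 87.9 and 91.2 CPM in ABCG1KO. Slc2a3, a high-affinity transporter, was at most 3.63 CPM in any library. The log2 fold changes in ABCG1KO were -0.36 (SE 0.260) and 1.28 (SE 0.462), neither past the threshold.

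Among the hexokinase genes, whose products trap glucose as its phosphate, Hk3 fell in ABCG1KO, and Hk1 and Hk2 were not called. Hk3, the hexokinase of blood and immune cells at chr13:55005985-55021385, was at 806, 923 and 661 CPM in WT, 484, 521 and 523 CPM in LysM-DKO, and 224 and 327 CPM in ABCG1KO. The 3 groups did not overlap, and the difference of ABCG1KO from WT was -1.53 (SE 0.222, edgeR Benjamini-Hochberg adjusted p 0.00381). Hk3 has no shared coding window. Hk2, the inducible hexokinase at chr6:82725025-82774454, was at 59.7, 80.8 and 80.3 CPM in WT, 53.7, 70.5 and 51.9 CPM in LysM-DKO, and 148 and 90.1 CPM in ABCG1KO. Its difference of 0.69 from WT (SE 0.243, edgeR Benjamini-Hochberg adjusted p 0.0913) was not called, although both ABCG1KO libraries were above the 6 others. Hk1, the housekeeping form, was at 105, 134 and 113 CPM in WT, 101, 121 and 120 CPM in LysM-DKO, and 83.7 and 93.0 CPM in ABCG1KO. It was not called in ABCG1KO (-0.41, SE 0.157).

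As a share of the counts of these 3 genes, Hk3 made up 83.1%, 81.1% and 77.3% in WT, 75.8%, 73.1% and 75.2% in LysM-DKO, and 49.2% and 64.1% in ABCG1KO. Hk2 made up 6.15% to 9.40% in WT, 7.48% to 9.90% in LysM-DKO, and 32.4% and 17.7% in ABCG1KO. The ABCG1KO libraries thus differed from each other in the size of this shift. Mast cell markers, which are no part of the sample by its label, were also uneven between them, with a summed level of 43.7 CPM in ABCG1KO 1 and 6.37 CPM in ABCG1KO 2, against 0.0776 to 2.95 CPM in WT, and their part in the shift was not tested. The 6 dendritic cell markers summed to 12.5 and 12.8 CPM in ABCG1KO and to 1.60 to 8.64 CPM in WT. Fibroblast markers were far higher, at 753 to 911 CPM in WT, 678 to 1662 CPM in LysM-DKO, and 160 and 1185 CPM in ABCG1KO 1 and 2. Mesothelial markers summed to 7.61 to 43.8 CPM in WT and to 6.15 and 23.1 CPM in ABCG1KO. B cell markers summed to 2.51 to 30.3 CPM and to 15.1 and 2.64 CPM. What other cells contributed to the differences between groups was not tested.

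The promoter windows of Hk2 and Hk3 are shown because these genes were called in opposite directions in LysM-DKO against ABCG1KO. Each runs from 250 bases before to 50 bases after the annotated start in the RefSeq table (GRCm38.p6), 5′ to 3′ on the strand of the gene. Capitals mark ACGTG or GCGTG on either strand, the core to which hypoxia-inducible factors are known to bind. ACGTG is also part of the longer site of MYC and related factors.
Hk2, chr6:82774405-82774704, minus strand: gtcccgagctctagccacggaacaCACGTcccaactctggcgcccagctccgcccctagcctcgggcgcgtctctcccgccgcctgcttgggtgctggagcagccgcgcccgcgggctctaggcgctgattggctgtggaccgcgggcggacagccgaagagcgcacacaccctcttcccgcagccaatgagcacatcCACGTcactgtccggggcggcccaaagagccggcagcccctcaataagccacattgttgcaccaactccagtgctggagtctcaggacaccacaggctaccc
Hk3, chr13:55021336-55021635, minus strand: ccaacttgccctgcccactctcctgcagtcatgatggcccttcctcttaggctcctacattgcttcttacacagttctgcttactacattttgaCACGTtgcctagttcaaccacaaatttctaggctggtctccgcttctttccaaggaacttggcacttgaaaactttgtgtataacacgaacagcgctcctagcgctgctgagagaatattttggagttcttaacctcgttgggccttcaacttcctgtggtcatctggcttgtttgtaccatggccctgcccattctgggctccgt
The window of Hk2 holds 2 matches and that of Hk3 holds 1. Among 48 windows of the 34 genes that matched the table, 37 (77.1%) hold at least 1 match, as do 43.8% of all 32851 windows. Windows of the same gene can overlap, as for Aldoa, Eno1 and Pfkm, so that a match may be counted more than once. The base composition of the windows was not compared. A match is a description of letters and not a measured binding site.

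**Figure D5:**
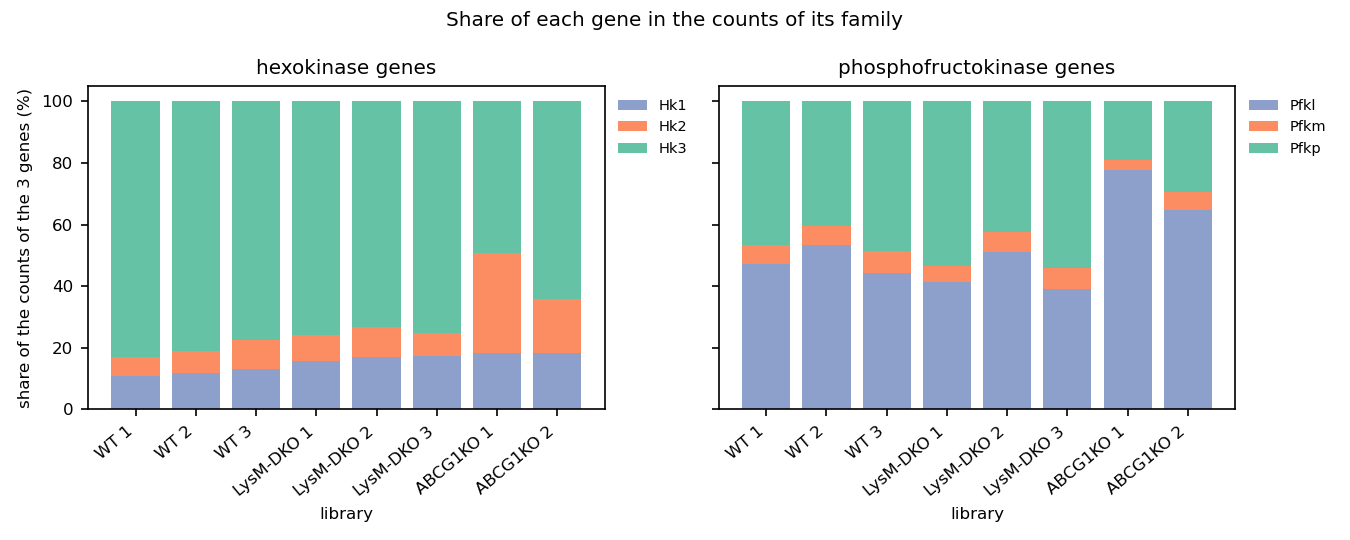
Stacked bars of the share of each gene in the summed counts of the 3 hexokinase genes (left) and the 3 phosphofructokinase genes (right), in percent, for each library. Hk3 makes up 73.1% to 83.1% in WT and LysM-DKO and 49.2% and 64.1% in ABCG1KO, and Pfkl makes up 39.1% to 53.5% and 77.9% and 64.7%.

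At the committing step, Pfkl, the liver-type phosphofructokinase gene, was at 103, 153 and 84.5 CPM in WT, 81.3, 131 and 83.6 CPM in LysM-DKO, and 308 and 180 CPM in ABCG1KO. Both ABCG1KO libraries were above the 6 others, and the difference from WT of 1.10 (SE 0.332, edgeR Benjamini-Hochberg adjusted p 0.0574) was not called. Pfkl made up 47.1%, 53.5% and 44.3% of the phosphofructokinase counts in WT and 77.9% and 64.7% in ABCG1KO. Pfkp, the platelet type, was at 92.4 to 116 CPM in WT and 75.0 and 82.2 CPM in ABCG1KO, and Pfkm, the muscle type, was at most 17.1 CPM in any library. Pfkfb3, whose product makes the activator fructose 2,6-bisphosphate, was at 74.7, 110 and 74.6 CPM in WT, 119, 163 and 91.5 CPM in LysM-DKO, and 106 and 176 CPM in ABCG1KO, with overlap between the groups. Pfkfb4, of the same family, was at 44.6 to 61.1 CPM in WT and 43.7 and 30.9 CPM in ABCG1KO. Gpi1, the isomerase between hexokinase and phosphofructokinase, was at 523, 610 and 401 CPM in WT and 354 and 343 CPM in ABCG1KO (-0.55, SE 0.192), and was not called.

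From pyruvate kinase onwards, no gene other than Hif1a was called in ABCG1KO. Pkm, the pyruvate kinase gene, was at 1990, 2179 and 1266 CPM in WT, 1241, 1367 and 1727 CPM in LysM-DKO, and 904 and 1237 CPM in ABCG1KO (-0.76, SE 0.283, edgeR Benjamini-Hochberg adjusted p 0.107). Ldha, which makes lactate, was at 770, 948 and 519 CPM in WT, 440, 442 and 611 CPM in LysM-DKO, and 738 and 710 CPM in ABCG1KO. Its difference in ABCG1KO was -0.04 (SE 0.266), and Ldhb, the form that favours pyruvate, differed by 0.02 (SE 0.322). Slc16a3, the lactate exporter, was at 47.5, 53.3 and 27.25 CPM in WT, 21.6, 44.2 and 34.5 CPM in LysM-DKO, and 68.5 and 48.7 CPM in ABCG1KO. Slc16a1, a lactate and pyruvate carrier, was at 14.3 to 19.99 CPM in WT and 21.1 and 36.3 CPM in ABCG1KO. Neither carrier was called.

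Hif1a, the oxygen-regulated subunit of hypoxia-inducible factor 1, was at 114, 154 and 112 CPM in WT, 127, 175 and 131 CPM in LysM-DKO, and 381 and 273 CPM in ABCG1KO. In ABCG1KO it rose by 1.37 log2 units (SE 0.225, edgeR Benjamini-Hochberg adjusted p 0.00656), to 258% of WT. Pdk1, a target of HIF1A whose product keeps pyruvate out of mitochondria, was at 57.5, 59.7 and 38.4 CPM in WT, 24.4, 30.8 and 41.4 CPM in LysM-DKO, and 101 and 45.6 CPM in ABCG1KO. Pdk1 was thus high in ABCG1KO 1 alone, and its difference was 0.49 (SE 0.358) with both libraries and -0.19 without ABCG1KO 1. Protein levels of HIF1A, which are set mainly by its breakdown, were not measured.

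Of the 7 pentose phosphate genes, 0 were called by edgeR in ABCG1KO, although 4 had an unadjusted p under 0.05, a limit met by 31.5% of all genes. DESeq2 called Rpia higher and Tkt lower, where it called 21.2% of the genes to which it gave an adjusted p, 9.51% higher and 11.7% lower. G6pdx, the gene of the entry enzyme and source of NADPH, lies on chromosome X and was at 278, 264 and 265 CPM in WT, 238, 206 and 214 CPM in LysM-DKO, and 183 and 235 CPM in ABCG1KO. Pgd, the other NADPH source of the pathway, was at 692, 549 and 605 CPM in WT, 546, 478 and 575 CPM in LysM-DKO, and 791 and 801 CPM in ABCG1KO. Tkt, the transketolase gene, was at 673, 523 and 492 CPM in WT, 391, 316 and 435 CPM in LysM-DKO, and 375 and 362 CPM in ABCG1KO. Pgd and Tkt differed in opposite directions in ABCG1KO, by 0.37 (SE 0.162) and -0.61 (SE 0.201), each without overlap with WT. The log2 ratio of Tkt to Pgd counts within a library averaged -0.14 ± 0.141 in WT (SD, n = 3), -0.49 ± 0.0988 in LysM-DKO (n = 3) and -1.11 ± 0.0490 in ABCG1KO (n = 2).

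The other 4 pentose phosphate genes were not called. Rpia, which makes ribose 5-phosphate, was at 18.8, 13.1 and 17.1 CPM in WT and at 48.2 and 22.6 CPM in ABCG1KO (1.12, SE 0.350, edgeR Benjamini-Hochberg adjusted p 0.065). Pgls, the lactonase gene, was at 68.6 to 86.0 CPM in WT and 61.5 and 47.0 CPM in ABCG1KO. Rpe, an epimerase gene, was at 39.8 to 42.9 CPM and 35.7 and 36.5 CPM. Taldo1, the transaldolase gene, was at 391 to 624 CPM and 452 and 538 CPM, and differed by -0.01 (SE 0.285).

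A term for the sex pattern, which rests on LysM-DKO 1 as the only library with the male pattern outside ABCG1KO, reduced the calls in ABCG1KO against WT to 5. Gapdh, Pgk1, Pgam1, Eno1 and Eno2 remained called in that fit. The calls of Hk3 (-1.42), Aldoa (-1.05), Aldoc (-0.44), Tpi1 (-1.05), Eno3 (1.26) and Hif1a (1.64) were lost.

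In LysM-DKO against WT, a test of epsin loss if the label is right, 0 of the 35 genes were called by edgeR, where 0.0362% of all genes were called, 0.0217% higher and 0.0145% lower. At an unadjusted p under 0.05 there were 8, all of them lower in LysM-DKO (Hk3, Gpi1, Aldoa, Aldoc, Tpi1, Eno2, Ldha and Tkt), and this limit was met by 11.7% of all genes. DESeq2 called Aldoa alone (-0.46, DESeq2 Benjamini-Hochberg adjusted p 0.0462), and 2.09% of all genes with an adjusted p, 0.807% higher and 1.29% lower. Of the 35 log2 fold changes 27 were negative, with a median of -0.26 against 0.02 over all genes. The groups did not overlap for 1 higher and 7 lower genes, as for 21% of all genes tested, 11% higher and 9.98% lower.

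The values behind these differences lay within a modest range. Hk3 in LysM-DKO was at 63.9% of WT (-0.65, SE 0.189, edgeR Benjamini-Hochberg adjusted p 0.353), Aldoa at 73.6% (-0.44, SE 0.146) and Tkt at 67.7% (-0.56, SE 0.177). Eno2 was at 58.3% (-0.78, SE 0.279) and Aldoc, at 2.35, 6.995 and 11.9 CPM, was uneven among the LysM-DKO libraries. Gapdh was at 81.8% of WT (-0.29, SE 0.385) and Pgk1 at 75.0% (-0.42, SE 0.293), each with overlap. The highest positive value was that of Pfkfb3, at 0.52 (SE 0.278), also with overlap. Of the macrophage markers, Lyz2 was at 46.8% of WT in LysM-DKO without overlap (-1.09, SE 0.202, edgeR Benjamini-Hochberg adjusted p 0.173), while Cd68 was at 98.4%, Csf1r at 96.3% and Adgre1 at 91.7%, each with overlap. Lyz2 is also the lysozyme gene that the LysM label names, and the part of the genotype itself in its level was not tested. Fewer macrophages in a sample and less RNA of a gene per cell cannot be told apart in bulk RNA.

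The comparison between both mutant groups uses the same ABCG1KO libraries as the comparison with WT and is not independent of it. Of the 35 genes, 10 were called, against 13.4% of all genes tested (7.76% higher and 5.64% lower). DESeq2 called 15, 8 higher and 7 lower, where it called 19.9% of all genes with an adjusted p (10.9% and 9%). In LysM-DKO, 6 were higher (Hk3, Gapdh, Pgk1, Pgam1, Eno1 and Eno2) and 4 were lower (Hk2, Pfkl, Eno3 and Hif1a). Gapdh differed by 8.26 (SE 0.644), Eno1 by 6.06 (SE 0.376), Pgk1 by 2.72 (SE 0.367) and Pgam1 by 2.50 (SE 0.220). Libraries did not overlap for 12 higher and 10 lower genes, as for 48.2% of all genes (25.6% and 22.6%). With its copy counted together, Eno1 differed by -0.64 (edgeR Benjamini-Hochberg adjusted p 0.138). The value for Eno3 was -1.57 (SE 0.260) and that for Hif1a -1.18 (SE 0.224, edgeR Benjamini-Hochberg adjusted p 0.0137).

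Leaving out single libraries, which also lowers the number of samples, ended several of these calls. Without ABCG1KO 1, 5 genes were called, and the calls of Hk2 (-0.63), Hk3 (0.62), Pfkl (-0.88), Eno2 (0.94) and Hif1a (-0.93) were lost. Without LysM-DKO 1, 6 were called, and those of Hk2 (-0.98), Hk3 (0.90), Pfkl (-1.21) and Eno2 (1.15) were lost. With all libraries, Hk2 was at -1.02 (SE 0.243), Hk3 at 0.88 (SE 0.216), Pfkl at -1.31 (SE 0.332) and Eno2 at 1.35 (SE 0.327), with edgeR Benjamini-Hochberg adjusted p-values of 0.0312 to 0.0387. Closest to the threshold without passing it was Pgd (-0.58, SE 0.162, edgeR Benjamini-Hochberg adjusted p 0.0501), followed by Pfkp (0.48, SE 0.139, edgeR Benjamini-Hochberg adjusted p 0.055).

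Further genes of these pathways were read from 6 lists made by function. Of their 82 tested genes, 9 were called higher and 11 lower in ABCG1KO against WT, or 24.4%, where 16% of all genes were called, 7.21% higher and 8.83% lower. Of 18 tested genes of glucose uptake and glycolysis outside the set, 3 were called higher and 2 lower, or 27.8%. Slc2a6, a hexose transporter of lysosomes, was at 9.19 to 30.2 CPM in WT and 105 and 61.5 CPM in ABCG1KO (2.23, SE 0.599). Slc2a5, the fructose transporter, was at most 0.176 CPM in WT and at 2.85 and 2.05 CPM in ABCG1KO. Fbp1, which runs the phosphofructokinase step backwards, had 0 counts in each WT library and was at 6.43 and 1.01 CPM in ABCG1KO. Txnip, which restrains glucose uptake, fell by 0.99 (SE 0.285), and Ldhd, of D-lactate breakdown, fell by 1.83 (SE 0.454).

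Around the pentose phosphate pathway, H6pd, which runs its oxidative steps in the endoplasmic reticulum, was called higher in ABCG1KO, alone among 8 tested genes (0.65, SE 0.179). Among 12 genes of other NADPH sources, Nadk (1.04, SE 0.208), which makes NADP+, and Gsr (0.55, SE 0.153), which uses NADPH to reduce glutathione, were called higher. Aldh1l1, a folate enzyme, was called lower (-1.62, SE 0.363). Of 13 genes of pyruvate entry into mitochondria, 1 was called, the carrier gene Mpc1. It was at 43.0 to 51.1 CPM in WT and 3.67 and 2.50 CPM in ABCG1KO (-3.91, SE 0.286), and 46.2% of its coding windows are shared with other loci.

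Of 20 genes of the HIF pathway and its targets outside glycolysis, 1 was called higher and 5 lower in ABCG1KO, or 30%, against the 16% of all genes. Vhl, whose product marks HIF1A for breakdown, was at 18.6 to 20.4 CPM in WT and at 114 and 28.9 CPM in ABCG1KO, and so was high mainly in ABCG1KO 1. Ndrg1 fell by 2.90 (SE 0.380), Bnip3l by 2.07 (SE 0.193), and Car9 by 1.20 (SE 0.254), and the value for Epas1, the gene of HIF2A, was -2.02 (SE 0.328). Bnip3l has 73.4% and Higd1a (-0.72, SE 0.205) 44.8% of its coding windows shared. Of 11 genes of the serine and glycogen branches, Gbe1 (1.17, SE 0.192) and Pygl (1.20, SE 0.255), of glycogen branching and breakdown, were called higher. Gys1 (-1.27, SE 0.285) and Ugp2 (-0.89, SE 0.196), of glycogen synthesis, were called lower. In LysM-DKO against WT, 0 of the 82 tested genes of these 6 lists were called by edgeR, 14 had an unadjusted p under 0.05, where 11.7% of all genes did, and DESeq2 called 5, all lower (Aldh1l1, Ankrd37, Epas1, Idh1 and Mpc1), where it called 2.09% of all genes, 1.29% lower.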

How the data were processed

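The deposited files hold raw counts per gene symbol, 1 file per library, with 5 special lines that entered neither library sizes nor tests. The submitters' processing notes name STAR 2.7.9a, TopHat, HTSeq 0.11.2, DESeq2 1.30.1, limma and the mm10 build, without saying which aligner served which library. The annotation, strand setting and read length are not given in the sources used here. Counts were fitted with edgeR 4.0.16 in R 4.3.3 (TMM, filterByExpr, glmQLFit with the robust option, quasi-likelihood F test), with 5 residual degrees of freedom. Adjustment (Benjamini-Hochberg) ran over 13821 genes, and DESeq2 1.42.0 was an alternative. In simulated data, 1% of 2-fold and 62.5% of 4-fold changes were recovered among 200 changed genes in ABCG1KO against WT, and 6% and 69% in LysM-DKO against WT. In the real comparison of ABCG1KO with WT 16% of all genes were called, so that the simulated recovery need not hold there. A count of 0 allows 3 counts, or 0.0716 to 0.101 CPM before scaling, which covers counting error only. Windows of 50 bases were compared over GENCODE M21 transcripts, to which 23376 of 24421 symbols matched. Windows in overlapping genes were left out of the coding shares. They were counted in the shared transcript sequence to which the limits of 1% and 20% apply. Of the 35 genes, 11 overlap another annotated gene, 6 of them a gene with counts, and are uncertain where strand is unknown. The genes and lists were chosen with earlier results of these data known. Values in every library are given for each of the 35 genes called in any comparison, for the neighbours of Gapdh and for 14 genes chosen by role. Of each further list at most 5 called genes are named, by adjusted p. Higd1a of the HIF list is named in addition, for its shared coding windows. In total, 19 alternative settings were run, of which 2 (no robust spread, copies counted together) were added after the data were seen.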

Additional observations from a re-analysis of the deposited data

How the results depend on the processing

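The count of called genes was within 1.5 times its value in most settings. In LysM-DKO against WT it was 0 in each edgeR setting and 1 with DESeq2. In ABCG1KO against WT (11), it was 5 with the sex term, 4 among the 14 genes tested under 1% shared sequence, 17 with DESeq2 and 8 to 13 when a library was left out. In LysM-DKO against ABCG1KO (10), it was 5 with the sex term, 4 among those 14 genes, 6 when only these groups were fitted, and 5 to 12 when a library was left out. Fewer genes were tested under 1% shared sequence, and the other causes were not tested. Library size alone moved the median of all genes to 0.25 in ABCG1KO against WT and to 0.17 in LysM-DKO against WT, that of the 35 genes to -0.12 and -0.11, and the calls in the former to 7 higher and 9 lower, from 2 and 9.

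Replicate numbers gave no clear pairing of the samples, judged by correlating each library's deviations in log2 CPM from its group mean. Same-numbered LysM-DKO and WT libraries gave 0.04, 0.43 and -0.01. The value of 0.43, for LysM-DKO 2 and WT 2, was the highest between these groups, but LysM-DKO 1 correlated best with WT 3 (0.23). Same-numbered ABCG1KO and WT libraries gave -0.07 and -0.05. With 2 ABCG1KO libraries their deviations mirror each other, so that these values cannot decide on pairing. With the replicate block, 11 genes were called in ABCG1KO against WT, 7 in LysM-DKO against ABCG1KO and 0 in LysM-DKO against WT.

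Signs turned for genes that were not called, Aldoc (1.17 in LysM-DKO against ABCG1KO), Pdk1 (0.49) and Slc2a1 (-0.36, both in ABCG1KO against WT) among them, and for Eno1 with copies counted together (0.42 in ABCG1KO against WT, -0.64 in LysM-DKO against ABCG1KO). The causes were not tested. In LysM-DKO against WT, library size alone gave 0.11 for Hk1, 0.0482 for Pfkm and 0.0713 for Rpe, and the sex term 0.0404 for Hk1, 0.0670 for Pfkm, -0.0598 for Eno3 and -0.28 for Rpia. Rpia was at -0.0173 with RLE factors, -0.0237 with the replicate block, -0.0164 with DESeq2 and -0.0106 when only these groups were fitted. In ABCG1KO against WT, library size alone gave 0.17 for Pfkm, 0.20 for Ldha, 0.0496 for Rpe and 0.23 for Taldo1, and the sex term 0.22 for Slc2a1, 0.56 for Pfkm, 0.22 for Ldha and 0.0809 for Taldo1. Taldo1 was at 0.0166 with at least 10 counts in every library and at 0.23 with the replicate block. In LysM-DKO against ABCG1KO, library size alone gave -0.0030 for Gpi1, -0.0188 for G6pdx and -0.0368 for Tkt, and the sex term -0.27 for Slc2a1, -0.42 for Aldoc and -0.0146 for Bpgm.

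With libraries left out in turn, values in LysM-DKO against WT ranged from -0.12 to 0.0407 for Hk1, -0.47 to 0.0466 for Pfkl, -0.27 to 0.0523 for Pfkm, -0.41 to 0.0220 for Eno1, -0.0755 to 0.17 for Eno3 and -0.29 to 0.12 for Rpia. In ABCG1KO against WT they ranged from -0.26 to 0.0924 for Pfkm, -0.25 to 0.16 for Ldha, -0.15 to 0.16 for Ldhb, -0.19 to 0.95 for Pdk1 and -0.15 to 0.19 for Taldo1. In LysM-DKO against ABCG1KO they ranged from -0.0750 to 0.28 for Slc2a1, -0.23 to 0.14 for Pfkm, -0.52 to 0.23 for Pfkfb3, -0.0111 to 0.47 for Pfkfb4, -0.11 to 0.26 for G6pdx and -0.0589 to 0.14 for Tkt. Of the other single-gene values, 488, 554 and 483 kept their sign and their side of the threshold in ABCG1KO against WT, LysM-DKO against WT and LysM-DKO against ABCG1KO.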
